A study of Mus musculus with 12 samples.

Results

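The clustered protocadherin genes lie in 3 neighbouring groups on mouse chromosome 18 (mm10), and were taken as every gene whose symbol begins with Pcdha, Pcdhb or Pcdhg followed by a digit or by a, b or c. There are 58 of them, where the autosomes and X hold 21627 protein-coding genes, with 14 in the alpha cluster (36930285 to 37188897), 22 in the beta cluster (37264998 to 37521419) and 22 in the gamma cluster (37661775 to 37841873). The gene table lists 1 of the 58, Pcdhgb8, as a transcribed pseudogene. Their DNA methylation was read by reduced representation bisulfite sequencing, in which bisulfite converts unmethylated but not methylated cytosines, so that each read across a CpG calls it methylated or not. The method reads restriction fragments and covers CpG-dense DNA best. All libraries came from CMM cells, a GFP-marked mouse model of acute myeloid leukaemia with inv(16), injected into a vein of C57BL/6 mice and recovered from the spleen. The CD11b-positive and CD11b-negative groups are the GFP+ cells with and without the myeloid surface marker CD11b from mice given CpG-STAT3dODN, in which a CpG-rich oligonucleotide carries a decoy DNA for the transcription factor STAT3. The PBS group is GFP+ cells from mice given PBS, sorted without regard to CD11b, so in any comparison with PBS the treatment and the selection by CD11b cannot be told apart. Injections were intravenous, on alternate days and 3 in number, began when about 1% of blood cells were GFP+, and were followed by harvest after 1 day. Each group has 4 libraries. The series asks how methylation differs in the CD11b-positive subset.

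Clustered protocadherins are cell adhesion proteins with cadherin repeats, best known from neurons, where each cell uses a few of them and so carries a surface identity. In the alpha and gamma clusters every variable exon has its own promoter and encodes the outer part and membrane span of 1 protein, and it is spliced to constant exons that all members of the cluster share. The beta genes are single-exon genes without constant exons. Promoter choice in neurons involves the insulator protein CTCF and cohesin, and methylation by DNMT3B together with the chromatin protein SMCHD1 keeps unused promoters silent. The last variable exons, called C-type (Pcdhac1 and Pcdhac2 in alpha, Pcdhgc3, Pcdhgc4 and Pcdhgc5 in gamma), are used more constantly than the others. No RNA was measured here, so the data give methylation and not use of the genes, and the sorted labels could not be set against marker expression.

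The start window of a gene is the stretch from 500 bp before to 2500 bp after its annotated start, which holds the promoter and most of a variable exon. Its methylation is the percentage of methylated calls over the CpGs with at least 10 calls in all 12 libraries (common CpGs). At least 3 common CpGs were required, which left 39 of the 58 member windows (8 alpha, 10 beta, 21 gamma) among 14914 windows of all genes. The members without a measured window are Pcdha6, Pcdha7 and Pcdha9 to Pcdha12, 12 beta genes and Pcdhga6. The 39 held 3 to 51 common CpGs (median 16) and 66 to 13416 calls per library. The stretch that spans the 3 clusters and their flanks held 931 of the 1052856 common CpGs, 238 in alpha, 111 in beta, 495 in gamma and 87 outside the clusters. The window of Pcdha4 holds the same CpGs as that of Gm37013, a gene model that overlaps it.

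The libraries held 112671408 to 157223205 methylation calls. Mean methylation over all common CpGs was 34.7% ± 0.810 in CD11b-positive, 33.1% ± 1.59 in CD11b-negative and 31.4% ± 0.292 in PBS (SD, n = 4 each). CD11b-positive 2 and CD11b-negative 2 stood apart from the other libraries of their groups at many of the windows below. Calls on 8 Y genes per 1e+06 autosomal calls, here named the Y share, were 25.04, 41.3, 23.8 and 23.8 in CD11b-positive 1 to 4, 12.9, 40.2, 11.1 and 8.64 in CD11b-negative 1 to 4, and 5.52, 18.6, 8.25 and 11.04 in PBS 1 to 4. The Y share was thus highest in the library numbered 2 of every group and higher in every CD11b-positive library than in every PBS library. Whether the 4 libraries of a group are from different mice is not stated by the labels. The p-values therefore cover the spread among these libraries alone, which may be technical.

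Most clustered protocadherin start windows were methylated in these leukaemia cells in all 3 groups, in contrast to gene start windows at large. Most of their common CpGs lie past the start. C-type genes apart, the 500 bp before it held 5 CpGs in beta (31.8% ± 4.36 in PBS) and 5 in gamma A (20.2% ± 1.74). In the first 500 bp past it the PBS means were 72.2% in alpha, 56.6% in beta, 55.1% in gamma A and 37.4% in gamma B. The window level is thus not that of the promoter alone. The median window of the 39 was at 67.1% in CD11b-positive, 69.7% in CD11b-negative and 70.0% in PBS, and the median of all 14914 windows was 1.77%, 1.61% and 1.40% in the same order of groups. A level of 50% or more was reached by 32, 34 and 35 of the 39 in CD11b-positive, CD11b-negative and PBS, and by 12.5%, 11.7% and 11.8% of all windows. Under 20% lay 2 members in every group, the neighbouring C-type genes Pcdhgc3 and Pcdhgc4. These levels are a description, and no test was made of members against other genes.

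The 10 measured beta windows were all above 50%, with means from 61.4 to 84.9% in CD11b-positive, 63.5 to 87.1% in CD11b-negative and 67.7 to 83.7% in PBS. In PBS the first gene Pcdhb1 (67.7% ± 3.49) and Pcdhb2 (67.7% ± 2.17) were lowest and did not differ beyond this spread, and the last measured gene, Pcdhb22, was highest at 83.7% ± 2.94. Within gamma, means in PBS reached from Pcdhgc4 at 5.81% ± 1.01 to Pcdhga12 at 85.7% ± 6.38, and the first gene, Pcdhga1, was at 58.7% ± 2.01. Among the alpha windows, Pcdha2 was highest in PBS at 78.4% ± 4.004, the first gene Pcdha1 was at 76.3% ± 3.07, and the last, Pcdhac2, was lowest at 49.0% ± 5.41 (SD, n = 4 each). Pcdhga12 and Pcdhgb2, the next below it at 85.1% ± 3.53, did not differ beyond this spread. The same held for Pcdhb22 and Pcdhb15 (82.6% ± 1.68), and for Pcdha2 and Pcdha1. The window of Pcdhb22 rests on 3 CpGs and that of Pcdha2 on 4.

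**Figure D1:**
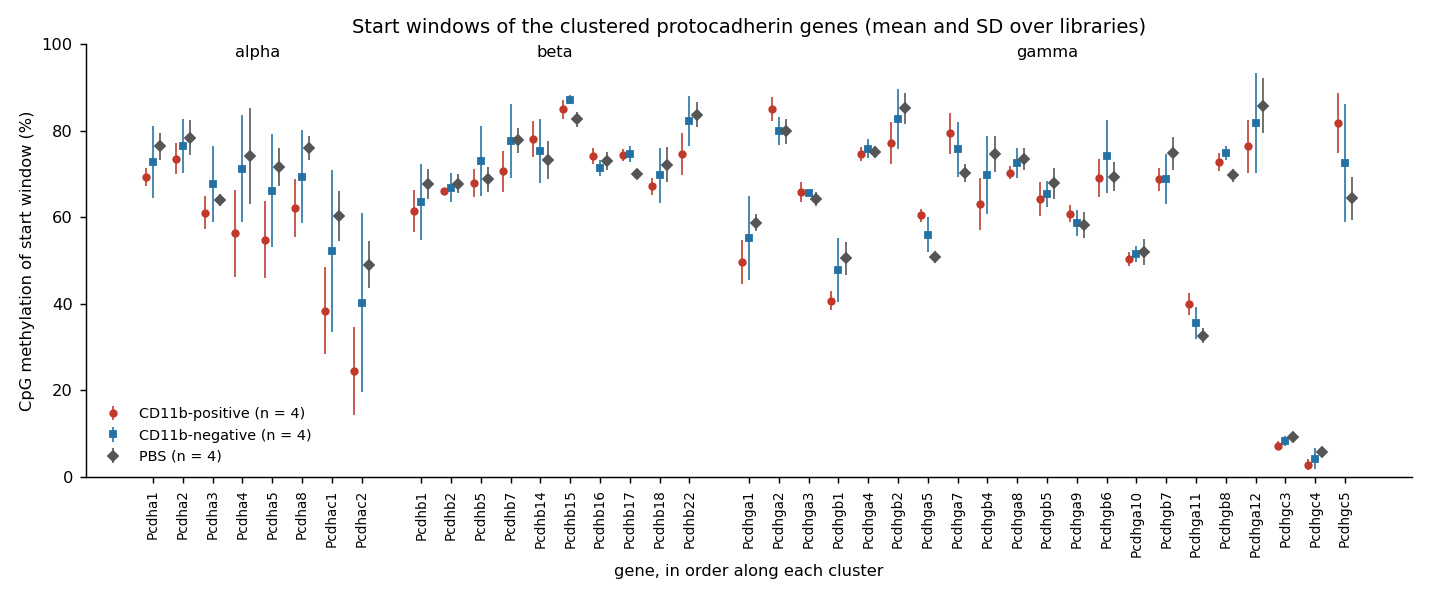
Mean methylation (%, points) of the 39 measured start windows in gene order along the alpha, beta and gamma clusters, with the SD over 4 libraries per group (bars). Most windows lie above 50% in all groups, Pcdhgc3 and Pcdhgc4 lie under 10%, and the alpha windows are lower in CD11b-positive than in PBS.

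The 5 C-type exons did not share a level. Pcdhgc3, which acts in dendrite branching of mouse cortical neurons, had 7.16% ± 1.08 in CD11b-positive, 8.28% ± 1.07 in CD11b-negative and 9.16% ± 1.14 in PBS. Pcdhgc4, the isoform on which survival of mouse neurons depends, had 2.75% ± 1.24, 4.19% ± 2.43 and 5.81% ± 1.01 in the same groups. Both lay under 20%, as did 78.6%, 77.3% and 76.8% of all windows in these groups. Pcdhgc5, the last exon of gamma and close to Pcdhgc4, had the highest mean of the 5 in every group, with 81.8% ± 6.86 in CD11b-positive, 72.5% ± 13.6 in CD11b-negative and 64.4% ± 4.94 in PBS. Pcdhac1 and Pcdhac2 had means between those of Pcdhgc3 and Pcdhgc5, with 38.4% ± 10.2 and 24.4% ± 10.1 in CD11b-positive, 52.1% ± 18.7 and 40.3% ± 20.8 in CD11b-negative, and 60.2% ± 5.73 and 49.0% ± 5.41 in PBS (SD, n = 4 each). In PBS Pcdhac1 and Pcdhgc5 did not differ beyond this spread.

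Against PBS, the CD11b-positive cells address what sets the treated subset with CD11b apart from leukaemia cells without treatment. Methylation fell in the start windows of Pcdhac1 and Pcdhac2, the C-type exons of alpha, and of Pcdha5, Pcdha8 and Pcdhgb4, and it rose in that of Pcdhgc5. All 8 measured alpha windows had a lower mean in CD11b-positive, 4 of them called, whereas none of the 10 beta windows was called and the 21 gamma windows divided into 1 higher, 1 lower and 19 not called. A call needed an adjusted p under 0.05 in a quasi-binomial model of methylated and unmethylated counts, with Benjamini-Hochberg adjustment over all 14914 windows, and a difference of at least 10 percentage points. Of the 39 member windows 1 was called higher and 5 lower, where 7.33% of all windows were called higher and 5.34% lower (12.7% in all). Of all windows 76.8% lay under 20% in PBS, against 2 of the 39 members, and a window under 10% cannot fall by 10 points. The shares are thus not matched for level, and an excess of losses among the members was not tested.

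Pcdhac2, which guides the spacing of serotonergic axons in mouse brain, had 29.2, 9.24, 29.4 and 29.9% in CD11b-positive 1 to 4 and 55.1, 42.0, 50.3 and 48.6% in PBS 1 to 4. Every CD11b-positive library was lower than every PBS library, and CD11b-positive 2 was far below the other 3. The difference was -24.5 points (adjusted p = 0.0169, edgeR's quasi-likelihood test on the same counts 0.0357). Pcdhac1 had 38.1, 24.2, 45.3 and 46.1% in CD11b-positive 1 to 4 and 65.9, 52.3, 62.2 and 60.4% in PBS 1 to 4, again without overlap, a difference of -21.8 points (adjusted p = 0.0209). CD11b-positive 2 and PBS 2 were the lowest libraries of their groups at both exons.

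The decrease was not limited to the C-type exons of alpha. Pcdha5 had 55.5, 42.7, 56.9 and 64.0% in CD11b-positive 1 to 4 and 76.9, 66.4, 71.8 and 71.1% in PBS 1 to 4, with a difference of -16.8 points (adjusted p = 0.0219). Pcdha8 had 62.8, 52.4, 65.9 and 67.3% in CD11b-positive and 78.1, 72.0, 77.4 and 76.6% in PBS, with a difference of -13.9 points (adjusted p = 0.0182). The groups did not overlap at either gene. Pcdha4 differed by -17.8 points over 7 CpGs, but its libraries spread from 44.6 to 64.7% in CD11b-positive and from 60.8 to 86.4% in PBS, and it was not called (adjusted p = 0.0843). The 1000 bp tile of these CpGs (36954001 to 36955000) was called lower, with an adjusted p of 0.0327 over all tiles. Pcdha1 differed by -7.04 points (adjusted p = 0.0424), under the 10 points of a call, and Pcdha2 (-4.85) and Pcdha3 (-3.04) had adjusted p of 0.378 and 0.320.

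**Figure D2:**
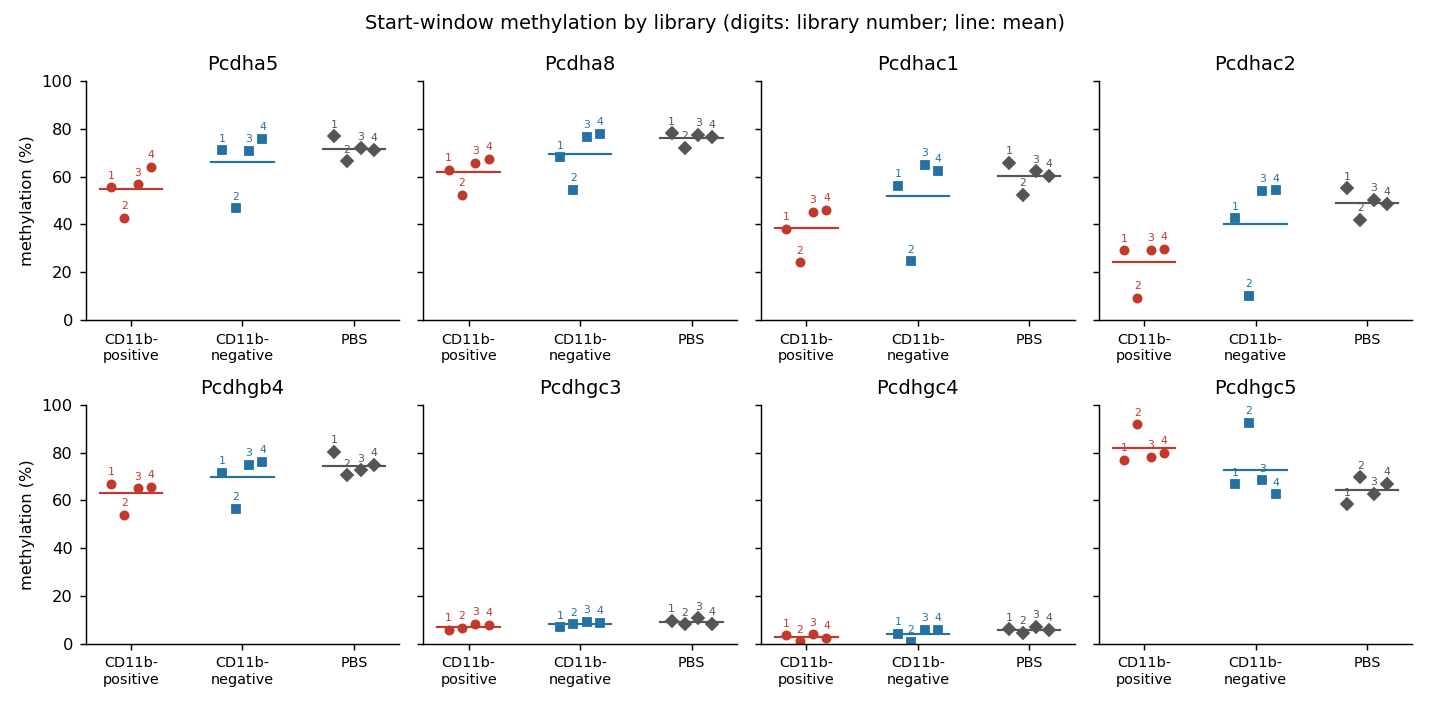
Start-window methylation (%) of the 6 called members and of Pcdhgc3 and Pcdhgc4, with 1 point per library, its number above it and a line at the group mean. Library 2 is lowest in every group at Pcdhac1 and Pcdhac2 and highest in every group at Pcdhgc5, and the CD11b-positive and PBS points do not overlap at the 6 called windows.

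In gamma, Pcdhgc5, an exon whose protein is found at inhibitory synapses of rodent neurons, went the other way. It had 76.9, 91.9, 78.3 and 79.98% in CD11b-positive 1 to 4 and 58.3, 69.6, 62.7 and 66.9% in PBS 1 to 4, a difference of 17.4 points without overlap (adjusted p = 0.0222). Pcdhgb4 had 67.0, 54.0, 65.0 and 65.7% in CD11b-positive and 80.3, 70.4, 72.6 and 74.96% in PBS, a difference of -11.6 points (adjusted p = 0.0359). With edgeR, 5 of the 6 called windows were called, 1 higher and 4 lower, and Pcdhgb4 was not (8.48% of all windows were called). Pcdhgb4 was also not called without CD11b-positive 2 or CD11b-positive 3, or with a window of 1000 bp on each side of the start. Pcdhgc4 differed by -3.06 points (adjusted p = 0.0113) and Pcdhgc3 by -2.003 points (adjusted p = 0.0964). At these low levels a loss of 10 points could not occur.

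Several A- and B-type exons of gamma passed the adjusted p but not the 10 points. Pcdhga5 (9.61 points, adjusted p = 0.00674), Pcdhga7 (9.24 points) and Pcdhga11 (7.26 points) were higher in CD11b-positive. Pcdhgb1 (-9.73 points), Pcdhga12 (-9.39 points), Pcdhga1 (-9.07 points) and Pcdhgb2 (-7.93 points) were lower. Without a least difference 16 member windows passed, 5 higher and 11 lower, where 30.2% of all windows did. In beta the differences ran from -9.06 points at Pcdhb22 (adjusted p = 0.0792) to 4.87 points at Pcdhb14 (adjusted p = 0.506), and Pcdhb1 differed by -6.36 points (adjusted p = 0.139). Pcdhb17 alone of the 10 measured beta windows passed the adjusted p (4.32 points, 0.0497), under the 10 points of a call and without overlap of the groups. Pcdhb20, with 2 common CpGs, was not among the 10. It was called higher when 1 common CpG sufficed (16.7 points, adjusted p = 0.0329).

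Over all 39 windows 12 differences were above 0 and 27 below, with a median of -3.06 points, where the median of all windows was 0.0937 points. The median level of all windows in PBS was 1.40%, so most of them had little room to fall. The medians were -15.4 points in alpha, -1.29 in beta and -1.53 in gamma. This division holds for whole windows. In the first 500 bp past the start, C-type exons apart, alpha had 59.1% in CD11b-positive and 72.2% in PBS, and beta 45.4% and 56.6%. Gamma A had 48.6% and 55.1% there, and gamma B 35.6% and 37.4%. From 500 to 1000 bp alpha had 52.5% and 63.4%, beta 77.0% and 70.7%, gamma A 61.4% and 59.6%, and gamma B 79.9% and 80.4%. Differences by position were not tested. The groups did not overlap at 15 member windows (5 higher, 10 lower), where this held for 21.4% of all windows on the higher and 11.9% on the lower side (33.3% in all). Without the libraries numbered 2, 7 member windows were called, the same 6 and Pcdhgb1 (-10.1 points), with 12.6% of all windows called.

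The calls depended on the fit. With all 12 libraries sharing 1 estimate of spread no member was called (0.248% of all windows were), and the 6 then had adjusted p from 0.0786 to 0.0892. With the Y share as a term their differences shrank to between -2.73 and 0.949 points and none was called, while Pcdhga2 was called higher (11.7 points, adjusted p = 0.0160, 0.0402% of all windows). Without PBS 1 no member was called (3.18% of all windows were), and without PBS 3 or PBS 4 Pcdhac2 was called and the other 5 were not (4.07% and 4.08% of all windows). Every CD11b-positive library had a higher Y share than every PBS library, so the fit with this term cannot tell the Y share from the group. Without the term Pcdhga2 differed by 5.10 points (adjusted p = 0.0554). The part of the Y share in these differences was not tested otherwise.

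**Figure D3:**
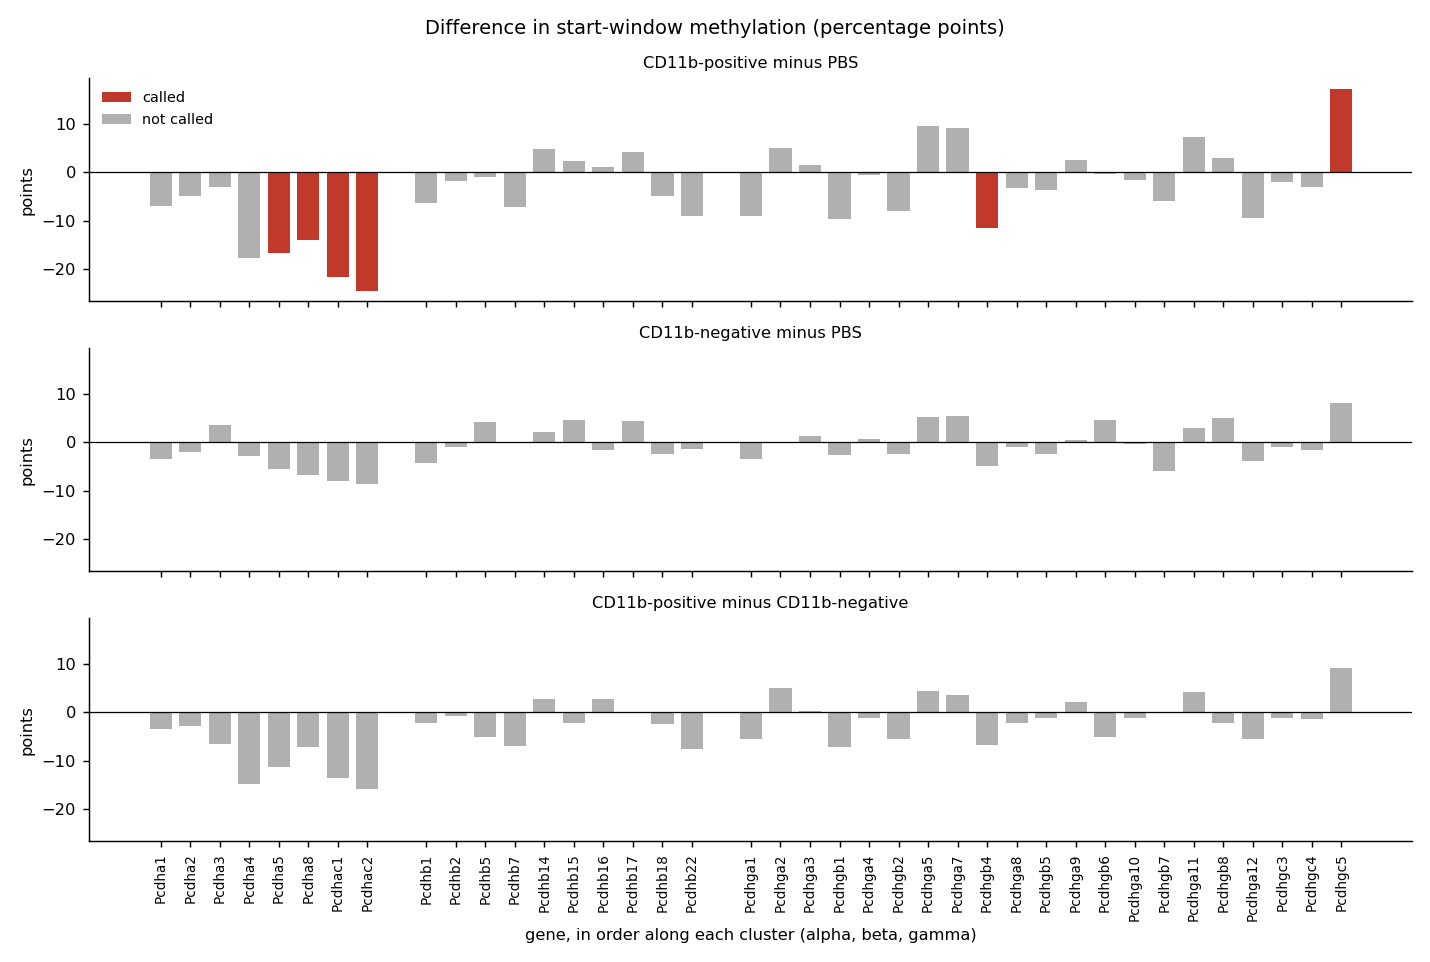
Difference in start-window methylation (percentage points, bars) for the 39 measured genes in order along the clusters, in CD11b-positive minus PBS, CD11b-negative minus PBS and CD11b-positive minus CD11b-negative, with called windows in red. In the upper panel Pcdha5, Pcdha8, Pcdhac1, Pcdhac2 and Pcdhgb4 are called lower and Pcdhgc5 higher, and the other panels hold no called window.

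Tiles of 1000 bp hold largely the same common CpGs in smaller units. Their division between the clusters is thus no further support for that of the windows. Of the 87 tiles measured in the stretch, 7 were called higher and 13 lower, where 32.5% of all 87020 tiles were called higher and 3.76% lower (36.2% in all). Alpha held 0 higher and 8 lower of 19, beta 0 and 0 of 16 (6 at an unadjusted p under 0.05, as were 64.2% of all tiles), gamma 6 higher and 4 lower of 42, and the DNA outside the clusters 1 and 1 of 10. The largest losses lay in the windows of Pcdhac2 (37143001 to 37144000), with 24.7% ± 13.1 in CD11b-positive and 50.5% ± 5.84 in PBS, and of Pcdhac1 (37089001 to 37090000), with 22.4% ± 11.3 and 48.1% ± 7.78. The largest gains lay across the end of the Pcdhgc5 window and mostly past it (37822001 to 37823000), with 80.8% ± 10.1 in CD11b-positive and 58.5% ± 5.89 in PBS, and inside that window (37821001 to 37822000), with 79.0% ± 7.82 and 58.8% ± 6.68 (SD, n = 4 each). Their adjusted p were 0.00728, 0.00867, 0.00855 and 0.00695. With the Y share as a term 0 tiles were called, with an unadjusted p under 0.05 at 11 of the 87.

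The single CpGs of the C-type windows were also compared, to show where along each window the differences lay. They are the CpGs pooled in the windows above, read in the same libraries. Their counts are thus a description and no further support. The common CpGs began 141 bp past the start at Pcdhac2, 94 bp at Pcdhgc4 and 269 bp at Pcdhgc5, so none before the start was read there. At Pcdhac1, 43 of 45 CpGs were lower in CD11b-positive than in PBS, with a median difference of -20.7 points, and at Pcdhac2 42 of 43, with a median of -27.8. All 13 CpGs of the Pcdhgc5 window were higher in CD11b-positive, by 0.327 to 33.2 points. At Pcdhgc3 32 of 51 and at Pcdhgc4 16 of 21 CpGs were lower, with medians of -0.647 and -2.84 points. The highest CpG means in CD11b-positive were 39.8% at Pcdhgc3 and 18.6% at Pcdhgc4, where the lowest at Pcdhgc5 was 52.1%. The 18.6% at Pcdhgc4 (158 bp past the start) had an SD of 32.3 over the libraries. The CpGs at 94 and 124 bp spread as widely (16.7% ± 33.3 and 17.8% ± 32.7), so these means do not describe each library. In PBS the highest were 45.7% at Pcdhgc3 and 15.97% at Pcdhgc4, and the lowest at Pcdhgc5 was 18.9%.

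**Figure D4:**
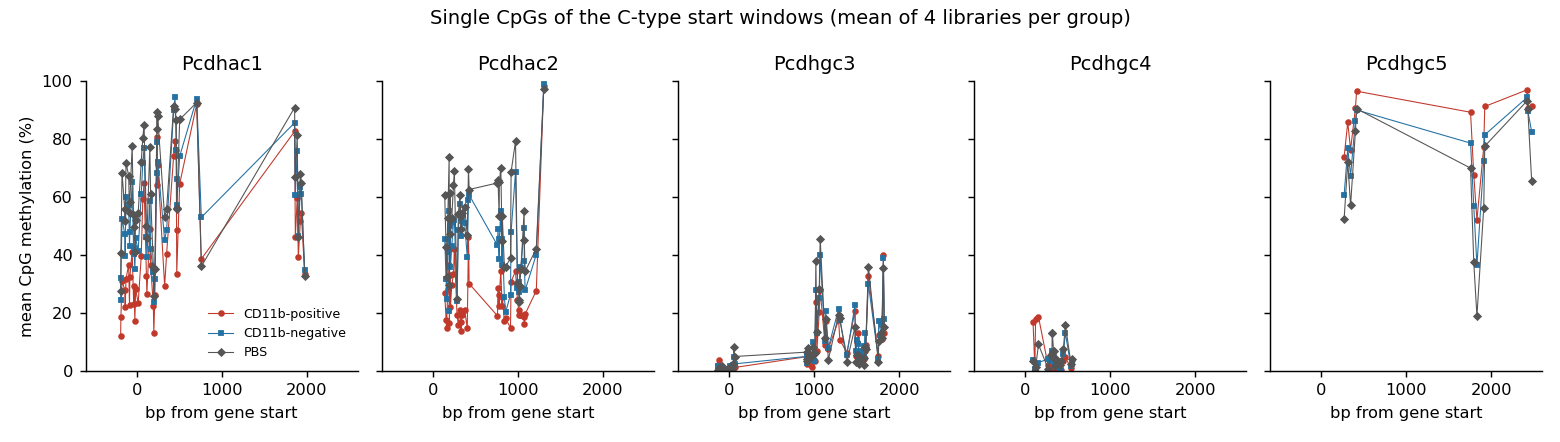
Mean methylation (%) of each common CpG in the windows of the 5 C-type exons against its distance from the annotated gene start (bp), with 1 line per group of 4 libraries. The CD11b-positive line runs below the PBS line at 43 of 45 CpGs of Pcdhac1 and 42 of 43 of Pcdhac2 and above it at all 13 of Pcdhgc5, and the group means of Pcdhgc4 stay under 20%. These are the CpGs pooled in the windows, so the counts are no further support.

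Over the whole stretch 69 of 931 CpGs were called higher and 145 lower in CD11b-positive against PBS, where 13.2% of all common CpGs were called higher and 3.47% lower (16.7% in all). With all 12 libraries in the fit 35 were called higher and 36 lower (7.22% of all CpGs were called), and with the Y share as a term 1 was. Without PBS 1, 3 or 4 in turn 115, 132 and 140 were called in all, where 11.3%, 11.6% and 12.2% of all CpGs were. In the start windows of alpha 1 of 194 CpGs was called higher and 77 lower, in those of beta 9 and 12 of 101, and in those of gamma 40 and 52 of 478. In the rest of the 3 clusters 12 of 71 CpGs were called higher and 0 lower (27 had an unadjusted p under 0.05, as did 29.6% of all common CpGs), 6 of 44 in alpha, 0 of 10 in beta and 6 of 17 in gamma. Of the 6 in gamma, 4 are among the 13 CpGs just past the Pcdhgc5 window. Under 20% lay 25 of the 238 alpha CpGs in CD11b-positive, 1 in CD11b-negative and 2 in PBS. Outside the C-type windows these counts were 2, 1 and 2 of 150, so the rise in CD11b-positive lay in the windows of Pcdhac1 and Pcdhac2. Of all common CpGs 55.7%, 54.3% and 56.1% lay under 20% in the same groups.

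The cluster averages are taken over the same CpGs and are no further support. Mean methylation of the alpha CpGs was 55.5% ± 5.43 in CD11b-positive, 63.8% ± 11.3 in CD11b-negative and 67.9% ± 3.70 in PBS. In beta it was 68.6% ± 1.90, 70.0% ± 2.76 and 69.6% ± 1.48, and in gamma 53.0% ± 1.11, 53.9% ± 2.27 and 53.4% ± 1.91 in the same groups (SD, n = 4 each). The alpha libraries were at 55.9, 47.7, 59.1 and 59.4% in CD11b-positive and 72.0, 63.2, 69.3 and 67.3% in PBS, without overlap, and the groups overlapped in beta and in gamma. Without the C-type windows the 150 alpha CpGs averaged 67.9% ± 3.14 in CD11b-positive, 72.2% ± 6.50 in CD11b-negative and 74.3% ± 2.59 in PBS. CD11b-positive minus PBS was then -6.39 points, against -12.4 for all alpha CpGs. The alpha start windows averaged 49.3% ± 6.93 in CD11b-positive, 59.7% ± 14.1 in CD11b-negative and 65.5% ± 4.59 in PBS, and the rest of alpha 83.2% ± 1.38, 82.1% ± 1.26 and 78.8% ± 0.939. In gamma the 17 CpGs outside start windows averaged 77.0% ± 9.57, 64.9% ± 11.8 and 55.0% ± 4.26, and 13 of these 17 lie within 1000 bp past the end of the Pcdhgc5 window. Relative to the 3.32 points by which all common CpGs were higher in CD11b-positive than in PBS, the beta and gamma means differed by -4.35 and -3.73 points, against -1.03 and -0.411 without this subtraction.

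**Figure D5:**
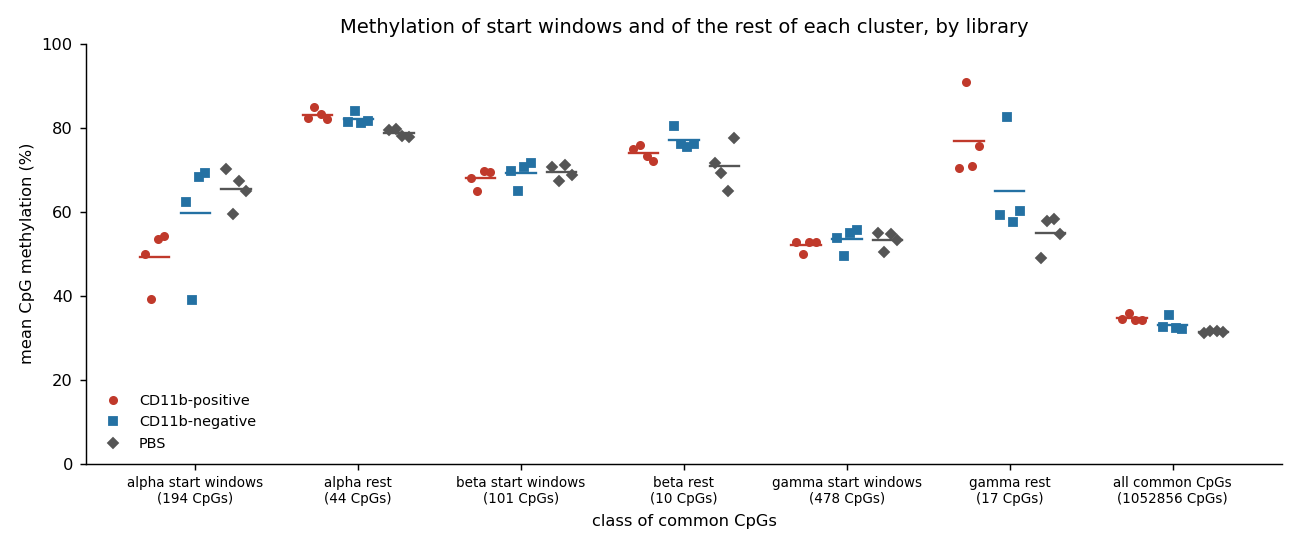
Mean methylation (%) of the common CpGs in the start windows and in the rest of each cluster and over all common CpGs, with 1 point per library and a line at the group mean of 4 libraries. The alpha start windows are lower in CD11b-positive (39.3 to 54.2%) than in PBS (59.4 to 70.3%), whereas the rest of alpha and of gamma is higher.

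Against PBS, the CD11b-negative cells address the same question for the treated cells that lacked CD11b. No member window, tile or CpG was called, nor any elsewhere in the genome (0% of windows, tiles and CpGs). An unadjusted p under 0.05 was reached by 3 of 39 windows, 9 of 87 tiles and 46 of 931 CpGs. Of all windows 5.31%, of all tiles 9.90% and of all CpGs 5.02% reached it. With edgeR 0 windows and 0 tiles were called. Among the windows 15 differences were above 0 and 24 below, with a median of -0.973 points against 0.0499 over all windows. The groups did not overlap at 4 windows, all higher in CD11b-negative (Pcdhb15, Pcdhb17, Pcdhga5 and Pcdhgb8), where 4.22% of all windows separated on the higher and 0.697% on the lower side (4.92% in all).

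The largest differences from PBS were at windows named above. Pcdhac2 had 42.5, 10.2, 54.1 and 54.2% in CD11b-negative 1 to 4, against the 42.0 to 55.1% of PBS, a difference of -8.71 points (adjusted p = 0.875). Pcdhac1 had 56.3, 24.6, 65.1 and 62.5% in CD11b-negative, a difference of -8.12 points from PBS (adjusted p = 0.861), and Pcdhgc5 had 66.7, 92.5, 68.3 and 62.5%, a difference of 8.11 points (adjusted p = 0.851). In each case CD11b-negative 2 lay far from the other 3 libraries, and without it the differences at Pcdhac2 and Pcdhac1 were 1.31 and 1.07 points. Pcdha8 (-6.68 points) and Pcdhgb7 (-5.95 points) had adjusted p of 0.845 and 0.842. The tiles with the largest gains lay in the windows of Pcdhga11 (37757001 to 37758000, 54.4% ± 8.05 in CD11b-negative and 40.0% ± 2.44 in PBS) and Pcdhgc5, and those with the largest losses in the windows of Pcdhac2 and Pcdha1, all with an adjusted p of at least 0.488.

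The comparison of CD11b-positive with CD11b-negative cells sets the sorted fractions of treated mice against each other. Without regard to library numbers 0 windows, tiles or CpGs were called (0% of each in the genome), and an unadjusted p under 0.05 was reached by 0 of 39 windows, 6 of 87 tiles and 63 of 931 CpGs. Of all windows 7.87%, of all tiles 10.8% and of all CpGs 6.81% reached it. All 8 alpha windows had lower means in CD11b-positive, with a median of -9.29 points, and beta and gamma had medians of -2.19 and -1.18 points, against 0.0523 over all windows. The largest differences were -15.8 points at Pcdhac2, -14.9 at Pcdha4, -13.7 at Pcdhac1, -11.3 at Pcdha5 and 9.27 at Pcdhgc5 (adjusted p = 0.481 to 0.484).

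Libraries of the same number had correlations of their deviations from 0.229 to 0.954 in these groups, and a fit with the number as a block changed the calls. Libraries of different numbers among 1, 3 and 4 also had correlations above 0, from 0.256 to 0.834, and those of number 2 with any other number were below 0. Within numbers 1 to 4, CD11b-positive minus CD11b-negative was -13.3, -0.973, -24.6 and -24.4 points at Pcdhac2. At Pcdhac1 it was -18.2, -0.385, -19.7 and -16.4 points, and at Pcdha5 -15.6, -3.98, -13.9 and -11.8 points. The direction was the same in all 4 numbers, and the difference was smallest within number 2, where both libraries were low. In this fit these 3 windows were called lower, with adjusted p of 0.0129, 0.0206 and 0.0261, and 0 higher, where 3.51% of all windows were called lower and 1.62% higher (5.13% in all). With the Y share as a term and no block 0 member windows were called (0% of all windows, 1 of the 39 at an unadjusted p under 0.05), and the difference at Pcdhac2 was 2.53 points (adjusted p = 0.789). Pcdhgc5 differed by 10.2, -0.624, 9.93 and 17.5 points and was not called (adjusted p = 0.0719).

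With the block 3 tiles were called higher and 5 lower, where 11.6% and 2.01% of all tiles were (13.6% in all), and 19 CpGs were called higher and 64 lower, where 5.10% and 1.71% of all CpGs were (6.81% in all). Without the block the tiles with the largest differences of means were not called (adjusted p = 0.387 for each of the 4). The losses were in the windows of Pcdhac2 (37144001 to 37145000), with 24.1% ± 8.04 in CD11b-positive and 41.2% ± 18.8 in CD11b-negative, and of Pcdhac1. The gains were in the window of Pcdhga9 (37738001 to 37739000), with 65.0% ± 4.44 and 47.8% ± 13.7 (SD, n = 4 each), and mostly past the end of the Pcdhgc5 window (37822001 to 37823000). Leaving out the libraries numbered 2 without a block, 4 windows were called, Pcdha5, Pcdhac1 and Pcdhac2 lower and Pcdhgc5 higher (12.6 points, adjusted p = 0.0216), where 7.52% of all windows were.

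Genes around and related to the clusters were read in the same way. Taf7, a general transcription factor gene between beta and gamma, was nearly unmethylated, with 0.660% ± 0.0935 in CD11b-positive and 0.616% ± 0.0441 in PBS. Outside the clusters 1 tile between alpha and beta was called lower in CD11b-positive (37218001 to 37219000), at 15.4% ± 6.95 against 28.1% ± 3.83 in PBS, and 1 was called higher (37236001 to 37237000), at 90.1% ± 2.97 against 79.2% ± 2.44 in PBS. Of 21 genes of the CTCF, cohesin, SMCHD1, DNA methylation and TET machinery 18 had a measured window, and 1 was called in CD11b-positive against PBS, Smc1a, an X-linked cohesin gene, which was lower (-23.2 points, adjusted p = 0.0499) and was called neither by edgeR, nor with all 12 libraries or the Y share in the fit, nor without any 1 library of either group other than PBS 2. Of all windows 7.33% were called higher and 5.34% lower, shares that are not matched for level. Stag2, the other X-linked gene of the 18, was also lower but was not called (-19.9 points, adjusted p = 0.139). Among the autosomal genes of the list the largest difference was -6.35 points, at Lrif1, which was not called. The median of the 18 was 0.0193 points. Dnmt3b had 3.17% ± 1.63 and 2.62% ± 0.344, Smchd1 0.606% ± 0.0953 and 0.719% ± 0.105, and Ctcf 0.743% ± 0.147 and 0.550% ± 0.0649 in CD11b-positive and PBS (SD, n = 4 each), and none of these 3 was called.

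Non-clustered protocadherins have no variable exons. Of 12 genes 10 were measured, with 11 windows, of which 1 was called higher and 4 lower in CD11b-positive against PBS, where 7.33% of all windows were called higher and 5.34% lower. These shares are not matched for level either. The median difference of the 11 was -9.62 points. Pcdh20 had 23.1% ± 10.3 in CD11b-positive and 50.2% ± 10.6 in PBS (adjusted p = 0.0244), Pcdh8 27.2% ± 11.03 and 50.5% ± 7.23 (0.0251), Pcdh9 15.5% ± 8.02 and 35.4% ± 5.85 (0.0221), and Pcdh10 12.7% ± 5.68 and 25.2% ± 2.44 (0.0162). These 4 lie on chromosomes 14 and 3. Pcdh12, an endothelial protocadherin on chromosome 18 beyond the gamma cluster, was higher, at 47.1% ± 7.68 in CD11b-positive and 23.3% ± 2.62 in PBS over 3 CpGs of an end whose strand is not given (adjusted p = 0.0254). None of these 5 was called with the Y share as a term, with all 12 libraries in the fit or without PBS 1, and without PBS 3 or PBS 4 the count was 1. None of the 11 windows was called in CD11b-negative against PBS or in CD11b-positive against CD11b-negative.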

How the data were processed

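The labels put 4 libraries in each of the 3 groups, 12 in all. Each library has 1 deposited file of raw counts, with the methylated and unmethylated calls of each CpG cytosine on each strand. The submitters' processing notes name build mm10 and Bismark, methylKit 1.20.0, cutadapt 2.7 and Trim Galore 0.6.4. For Bismark's version and settings, the conversion rate and any removal of duplicates, nothing is stated in the labels or files. The files keep no molecular identifiers, so copies of a molecule may be counted more than once.

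Strands were summed. Common CpGs (1052856 on the autosomes and X, median 84 calls per library) entered start windows, tiles of 1000 bp and single-CpG tests. Genes came from the RefSeq table of GRCm38.p6, the build of mm10, and strand from RefSeq promoters. Clustered protocadherin starts were placed at the lower coordinate, since alpha and gamma genes share the higher one, and other genes without strand had a window at each end. A window level pools calls over its CpGs, and a cluster mean weights CpGs equally and has no test.

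A quasi-binomial logistic model with an F test was fitted to the 8 libraries of each comparison. Its dispersion was moderated by empirical Bayes (limma's squeezeVar method) in bins of mean methylation with edges at 5%, 20%, 80% and 95%, with a floor of 1. The step was tested on simulated data. edgeR 4.0.16 (R 4.3.3, limma 3.58.1) was an alternative, and Python 3.11.15 with numpy 2.4.6 did the rest.

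The members, gene lists and rules were chosen with earlier results of these data known. Named by rule were the C-type genes, the first, last, highest and lowest gene of each cluster, in each comparison up to 5 called gains and 5 called losses (or, with fewer than 5 calls, the 5 largest differences), and the 2 largest tile gains and losses. Others were named after their values were seen. By the correlation of deviations over the measured windows of all genes, same-numbered libraries of CD11b-positive and CD11b-negative all passed the criterion for pairing, a correlation over 0.1, and those of either group with PBS did not all pass it (-0.214 to 0.824 for CD11b-positive, -0.264 to 0.854 for CD11b-negative). Among numbers 1, 3 and 4 libraries of different numbers correlated as highly. The labels do not say what a number marks. Leaving out the libraries numbered 2 was added after seeing the data.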

Additional observations from a re-analysis of the deposited data

Results flagged for a closer look

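In 4 of 57 sets of 4 libraries (3 cluster means and 16 named windows in 3 groups), 1 library lay far from the other 3 relative to the range of the group, where chance alone gives about 1 in 20. CD11b-positive 2 had 9.24% at Pcdhac2, with the other CD11b-positive libraries between 29.2 and 29.9%. It had 54.0% at Pcdhgb4, with the others between 65.0 and 67.0%, and a mean of 51.3% over the gamma cluster, with the others between 53.4 and 53.7%. PBS 1 had 84.3% at Pcdha2, with the other PBS libraries between 76.0 and 77.1%. Pcdha2 rests on 4 CpGs. CD11b-positive 2 also had the highest Y share of the 12 libraries, 41.3 per 1e+06 autosomal calls. The part of that share in its levels was not tested.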

How the results depend on the processing

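For CD11b-positive against PBS, 6 member windows, 20 tiles and 214 CpGs were called. Without a least difference these counts were 16 windows and 47 tiles, with all 12 libraries 0 windows and 71 CpGs, and with the Y share as a term 1 window, 0 tiles and 1 CpG. Leaving out single libraries gave 0 to 8 windows, 14 to 26 tiles and 115 to 213 CpGs, with the low CpG counts without PBS 1, 3 or 4 (115, 132 and 140). For CD11b-positive against CD11b-negative no window, tile or CpG was called, the replicate block gave 3 windows, 8 tiles and 83 CpGs, and leaving out single libraries gave 0 to 3 windows, 0 to 18 tiles and 0 to 105 CpGs, all above 0 without CD11b-negative 2. Without both libraries numbered 2 there were 4 windows, 14 tiles and 118 CpGs. These member counts are not set against all features at each setting, and calls over all features moved too. For CD11b-positive against CD11b-negative 0% of all windows were called in the main fit. With the block it was 5.13%, and without both libraries numbered 2 it was 7.52%. The replicate block changed no other count by over 1.5 times. For CD11b-negative against PBS every setting run gave 0 calls. Other coverage minimums, CpG minimums, window shapes and edgeR kept the counts of member windows, tiles and CpGs within 1.5 times, but gave 3 non-clustered protocadherins with 1000 bp on each side, and 0 of the CTCF, cohesin and methylation genes with at least 20 calls, at least 5 CpGs, both window shapes or edgeR. Subtracting the difference over all common CpGs gave -4.35 points in beta and -3.73 in gamma. Signs turned at windows that were not called without the block (Pcdhac2 was called lower with it). With the Y share as a term they were 1.82 at Pcdha2, 3.38 at Pcdhb1, 3.599 at Pcdhga12 and 0.727 at Pcdhgb7 (4.80 there with 1000 bp on each side) for CD11b-positive against PBS, 0.535 at Pcdhac1 and 0.718 at Pcdhac2 for CD11b-negative against PBS, and 2.53 at Pcdhac2, 1.44 at Pcdhgc4 and -3.31 at Pcdhgc5 for CD11b-positive against CD11b-negative. Leaving out single libraries gave -12.4 to 1.07 at Pcdhac1 and -13.4 to 1.31 at Pcdhac2 for CD11b-negative against PBS, above 0 without CD11b-negative 2. With equal weight per CpG they were 0.557 at Pcdhgc3 for CD11b-negative against PBS and 0.487 at Pcdhgc4 for CD11b-positive against CD11b-negative. The cause was not tested. Windows with few CpGs, such as those of Pcdhb14, Pcdhb18 and Pcdhb22 with 3, are the least certain, and 19 members could not be measured.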

Other observations

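Methylation along the variable exons differed by gene type, as a description over common CpGs pooled by distance from the annotated start. In the first 500 bp the gamma B exons averaged 35.6% ± 4.01 in CD11b-positive, 36.0% ± 5.02 in CD11b-negative and 37.4% ± 2.15 in PBS over 38 CpGs of 7 genes. From 1000 to 1500 bp they averaged 76.1% ± 1.63, 79.5% ± 2.71 and 78.7% ± 2.29 over 37 CpGs of 6 genes. The gamma A exons had 48.6% ± 2.77, 52.3% ± 6.47 and 55.1% ± 3.72 in the first 500 bp (105 CpGs, 8 genes) and 72.9% ± 0.811, 71.8% ± 1.25 and 70.6% ± 2.34 from 1000 to 1500 bp (70 CpGs, 11 genes). In beta the first 500 bp had 45.4% ± 8.85 in CD11b-positive, 50.9% ± 10.3 in CD11b-negative and 56.6% ± 4.57 in PBS over 17 CpGs of 5 genes, and the next 500 bp had 77.0% ± 1.38, 73.8% ± 3.98 and 70.7% ± 0.286 over 16 CpGs of 6 genes (SD, n = 4 libraries each). The sign of the difference between CD11b-positive and PBS thus differed between the neighbouring stretches of beta and of gamma A. The genes behind each stretch are not all the same ones, and these differences were not tested.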
